A study of Mus musculus with 6 samples.

Results

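The genes described here make cholesterol and fatty acids or control their supply. They were chosen by name: 19 enzymes of sterol synthesis, 5 genes of the SREBP transcription factors and their regulators, 3 genes of sterol trafficking and storage, 5 genes of the liver X receptor (LXR) and sterol efflux, and 8 genes of fatty acid synthesis. Of these 40 genes, 37 had a probe set with that single gene symbol in the annotation used here, among 19938 genes in all. A gene was tested when its mean over the arrays was at or above the 30th percentile, a log2 intensity of 6.70, which 35 of the 37 and 13956 of all genes reached. Every value below is a log2 intensity or a difference of log2 intensities, so a difference of 1 is a doubling.

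The data are 6 one-colour Affymetrix arrays. They held RNA of mouse T-cell acute lymphoblastic leukemia (T-ALL) from 3 independently made lines, named 14843, 14844 and 14846. Each line came from blood progenitors given active Notch (Notch-IC) by retrovirus, and all of them carried a tamoxifen-inducible Cre-ER transgene and the conditional allele Zfx fl/y, in both treatments. Leukemia cells were passed to sublethally irradiated secondary hosts, whose own blood cells are not all removed by such a dose. From day 10 the hosts received Vehicle or Tamoxifen by gavage, the drug at a daily 5 mg over 3 days. The leukemia cells, positive for GFP, were sorted 48 hours after the last dose. The labels call the Vehicle arrays ZFX flox and the Tamoxifen arrays ZFX null, with 1 array for each line and treatment (n = 3 a group). The age of the hosts is not given in the sources used here.

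The comparison asks how expression changed after Tamoxifen was given to delete Zfx, an X-linked zinc finger transcription factor. No group received Tamoxifen without Cre-ER or without the floxed allele, so effects of the drug, of active Cre and of the loss of Zfx cannot be told apart. This matters for sterol genes, because tamoxifen is known to bind and inhibit Ebp, the sterol isomerase near the end of cholesterol synthesis. The Zfx probe set had a mean of 10.87 ± 0.14 in Vehicle and 10.94 ± 0.06 in Tamoxifen (SD, n = 3 each), a difference of 0.07 ± 0.06 (SE) with an adjusted p of 0.480. Where its probes lie relative to the deleted part is not given in the sources used here, so the labels are not checked by it. T-cell markers were measured for 9 of 10 listed genes, all above the filter. Of 40 listed markers of other cells, 36 had a probe set and 23 were tested, and with the T-cell markers 0 of 32 were called changed between treatments. Between lines 5 of the 23 were called different, against 3.11% of all genes tested.

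Cells sense cholesterol in the endoplasmic reticulum. When it is scarce, Scap carries the SREBP proteins, the products of Srebf1 and Srebf2, to the Golgi, where they are cut and freed to enter the nucleus. There they raise transcription of sterol and fatty acid enzymes. When sterols are plentiful, the Insig proteins hold Scap back, and oxysterols activate LXR, which raises sterol efflux and also Srebf1 and some fatty acid enzymes. Proliferating lymphocytes use both branches to build membrane.

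Across the 35 tested genes, 1 was called changed between treatments at an adjusted p under 0.05, against 6.23% of all genes tested. That gene, Fasn, was lower. Among all genes tested 4.93% were called lower and 1.30% higher, so the count of 1 of 35 is not above the background. The lower share of all calls was 79.1%, and 57.7% with the arrays centred on the median of the genes tested. At an unadjusted p under 0.05 there were 10 of the 35, 3 of them higher and 7 lower in Tamoxifen, against 23.8% of all genes tested. The median difference of the 35 was -0.00, beside 0.03 over all genes tested. In 6 of the 35 the values of the treatments did not overlap, against 23.7% of all genes tested. The difference was positive in all 3 lines for 6 genes and negative in all 3 for 10, against 28.6% and 20.2% of all genes tested. The remaining 19 had a mixture of signs.

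**Figure D1:**
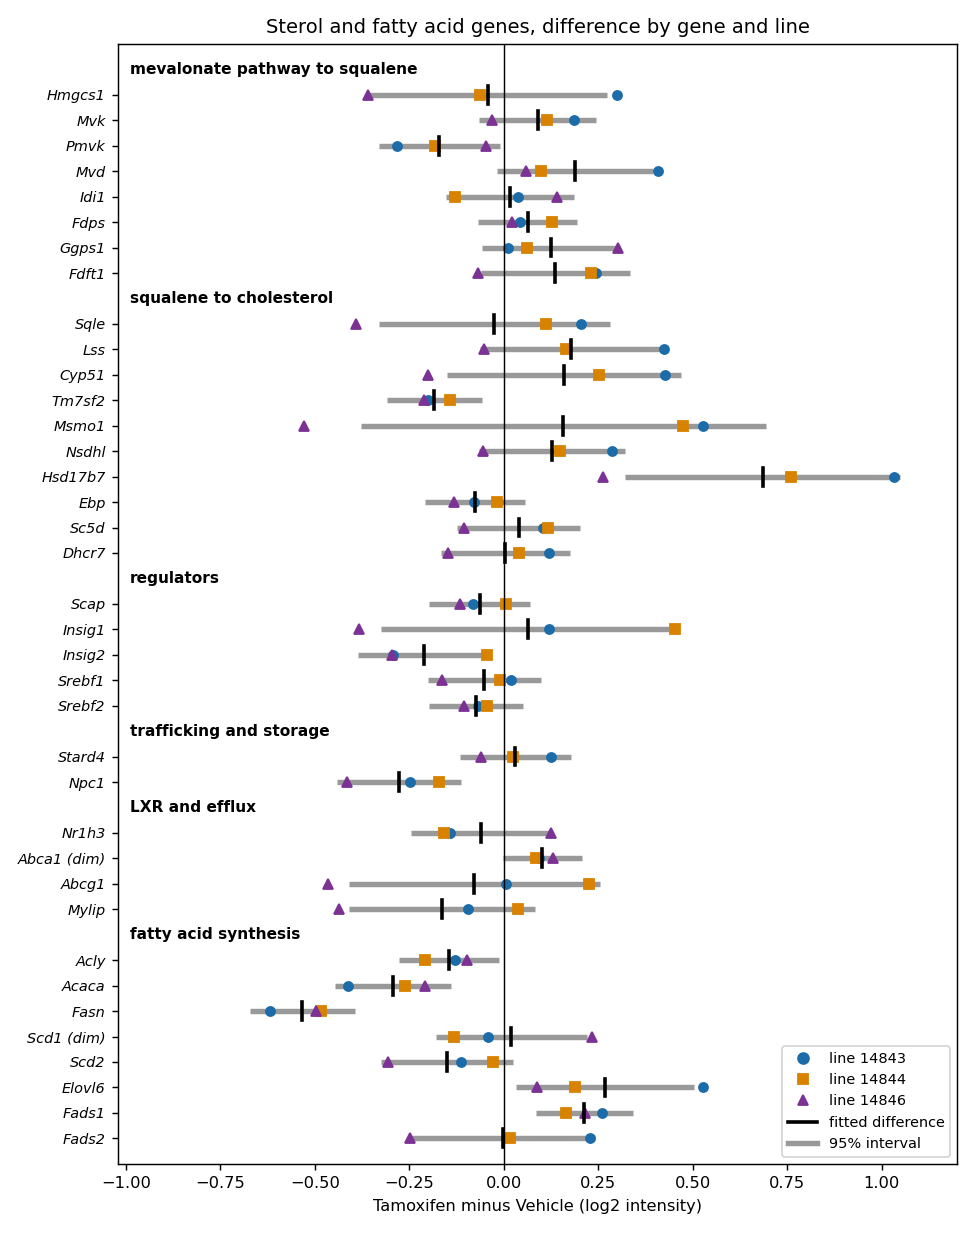
Tamoxifen minus Vehicle in log2 intensity for the 37 genes with a probe set, grouped by role; symbols are the 3 leukemia lines, black ticks the fitted difference and grey bars its 95% interval, and the genes marked dim were not tested. Fasn lies left of 0 in all 3 lines, Hsd17b7 right of 0, and Msmo1 on both sides.

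Promoter sequences are shown for 4 genes that the results turn on. Fasn was the 1 gene called changed, Hsd17b7 had the widest difference of the 35, and Msmo1 and Hmgcs1 are sterol enzymes whose lines differed in direction. Each sequence is the 250 bases before the start of the gene in RefSeq (GRCm38.p6), 5′ to 3′ on the strand of the gene. Capitals mark letters of a sterol regulatory element (TCACNCCAC, a sequence bound by SREBP), an E-box (CACGTG) or an NF-Y box (CCAAT). These letters were searched on both strands, where neighbouring matches may overlap. The windows are chr11:120824548-120824797 on the minus strand, chr1:169969206-169969455 on the minus strand, chr8:64733579-64733828 on the minus strand and chr13:119690101-119690350 on the plus strand.
Fasn: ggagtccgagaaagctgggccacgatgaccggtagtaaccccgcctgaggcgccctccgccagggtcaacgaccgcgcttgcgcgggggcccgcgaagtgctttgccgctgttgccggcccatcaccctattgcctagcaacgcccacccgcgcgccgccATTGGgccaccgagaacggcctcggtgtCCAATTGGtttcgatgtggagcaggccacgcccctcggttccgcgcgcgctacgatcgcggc
Hsd17b7: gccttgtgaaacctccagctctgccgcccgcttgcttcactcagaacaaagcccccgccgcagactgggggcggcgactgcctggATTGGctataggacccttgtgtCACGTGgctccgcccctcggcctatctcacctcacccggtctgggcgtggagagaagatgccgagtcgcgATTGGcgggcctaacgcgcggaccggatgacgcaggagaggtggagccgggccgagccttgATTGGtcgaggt
Msmo1: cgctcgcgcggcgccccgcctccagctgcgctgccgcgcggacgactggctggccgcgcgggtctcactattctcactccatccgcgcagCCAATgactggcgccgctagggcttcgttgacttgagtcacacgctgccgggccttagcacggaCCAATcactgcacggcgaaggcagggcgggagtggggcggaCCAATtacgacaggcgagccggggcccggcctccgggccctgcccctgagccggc
Hmgcs1: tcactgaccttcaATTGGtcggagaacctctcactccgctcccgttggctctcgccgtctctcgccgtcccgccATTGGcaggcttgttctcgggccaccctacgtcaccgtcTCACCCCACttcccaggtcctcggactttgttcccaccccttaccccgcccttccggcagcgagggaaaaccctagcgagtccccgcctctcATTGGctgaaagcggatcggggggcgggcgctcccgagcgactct

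All 4 windows held 3 matches to the NF-Y box, the binding letters of a factor known to act beside SREBP, and 2 of those in Fasn overlapped on opposite strands. The Hmgcs1 window also held 1 match to the sterol regulatory element and the Hsd17b7 window 1 E-box. Of the 40 genes, 31 had a window in the table used here, with 40 windows among them. The NF-Y box was found in 57.5% of those 40 windows and in 33.8% of all 32851 windows. The Sp1 box (GGGCGG), not capitalised above, was found in 65.0% of the 40 and 32.7% of all. The letters TCACNCCAC were in 1 of the 40 (2.5%) and 1.05% of all, and the E-box in 6 of the 40 (15%) and 6.02% of all. AGGCCT, letters known from Zfx binding, was in 4 of the 40 (10%) and 8.70% of all, in windows of Acly, Mvd, Nr1h2 and Pmvk and in none of the 4 windows shown. The shares of all windows were not limited to genes tested on the arrays, and no difference in share was tested. A match to letters describes the sequence and does not show a site in use.

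Fatty acid synthesis held the gene that changed. Fasn, the synthase that builds palmitate, fell 1.45-fold, and Acly, Acaca and Scd2 had lower values in Tamoxifen in all 3 lines without passing the test. Elovl6 and Fads1 had higher values in all 3 lines, also without passing it. Of the 8 genes 7 were tested, 1 was called lower and 0 higher, against 6.23% of all genes tested called either way. At an unadjusted p under 0.05 there were 5 of the 7, 2 higher and 3 lower, against 23.8% of all genes tested. The median difference was -0.15, beside 0.03 over all genes tested. It was -0.070 without line 14846, -0.073 with no filter on dim genes, and -0.086 with the arrays centred on the genes tested, where the median of all genes tested was 0.085. Fasn, Acly, Acaca, Scd2, Elovl6 and Fads1 kept their signs under all 11 alternative settings. Their 3 lines shared a sign, so leaving out a line could not turn it, nor could the block, the filter or the variance model. Only the centring of arrays or the choice of probe set could have done so.

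In Vehicle, Fasn measured 11.35, 11.62 and 11.53 in lines 14843, 14844 and 14846, and in Tamoxifen it measured 10.73, 11.14 and 11.03. The groups did not overlap, and each line was lower in Tamoxifen, by 0.62, 0.48 and 0.50. The group means were 11.50 ± 0.14 and 10.96 ± 0.21 (SD, n = 3 each). This gave a fitted difference of -0.53 ± 0.06 (SE), a 95% interval from -0.67 to -0.40 and a limma adjusted p of 0.0105. The call was lost without the line as a block (adjusted p = 0.0984) and without line 14844 (adjusted p = 0.0845), and held in the other 9 settings.

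Acly, which makes the cytosolic acetyl-CoA for both pathways, measured 11.22, 11.30 and 11.35 in Vehicle and 11.09, 11.10 and 11.25 in Tamoxifen, in the same order of lines. Its difference was -0.15 ± 0.05 (SE), with an adjusted p of 0.181, and the groups overlapped. Acaca, acetyl-CoA carboxylase and the committed step, measured 10.64, 10.83 and 10.55 in Vehicle and 10.23, 10.56 and 10.34 in Tamoxifen. All 3 lines were lower, but the highest Tamoxifen value lay above the lowest Vehicle value. The difference was -0.29 ± 0.06 (SE) with an adjusted p of 0.0563, and a second, dimmer Acaca probe set gave a mean difference of -0.34. Acaca passed the test in 2 of 11 settings, both of which centred the arrays.

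The desaturases differed among themselves. Scd2, a stearoyl-CoA desaturase, measured 12.78, 12.70 and 12.97 in Vehicle and 12.66, 12.67 and 12.67 in Tamoxifen. The 3 Tamoxifen values lay close together and below all Vehicle values, and the difference of -0.15 ± 0.07 (SE) had an adjusted p of 0.266. Scd1, its relative of liver and fat, measured 5.70, 5.66 and 5.57 in Vehicle and 5.66, 5.52 and 5.80 in Tamoxifen, below the filter, and was not tested.

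Fads1, the delta-5 desaturase of polyunsaturated fatty acids, measured 10.88, 11.00 and 10.89 in Vehicle and 11.14, 11.16 and 11.10 in Tamoxifen. These groups did not overlap, and the difference was 0.21 ± 0.05 (SE) with an adjusted p of 0.0790. Fads2, the delta-6 desaturase beside it in the pathway, had line differences of 0.23, 0.02 and -0.25 and a fitted difference of -0.00 ± 0.10 (SE). Elovl6, the elongase of palmitate, measured 9.70, 10.21 and 10.03 in Vehicle and 10.22, 10.40 and 10.11 in Tamoxifen. It was higher in every line, with line differences of 0.53, 0.19 and 0.09, and its difference of 0.27 ± 0.09 (SE) had an adjusted p of 0.173.

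**Figure D2:**
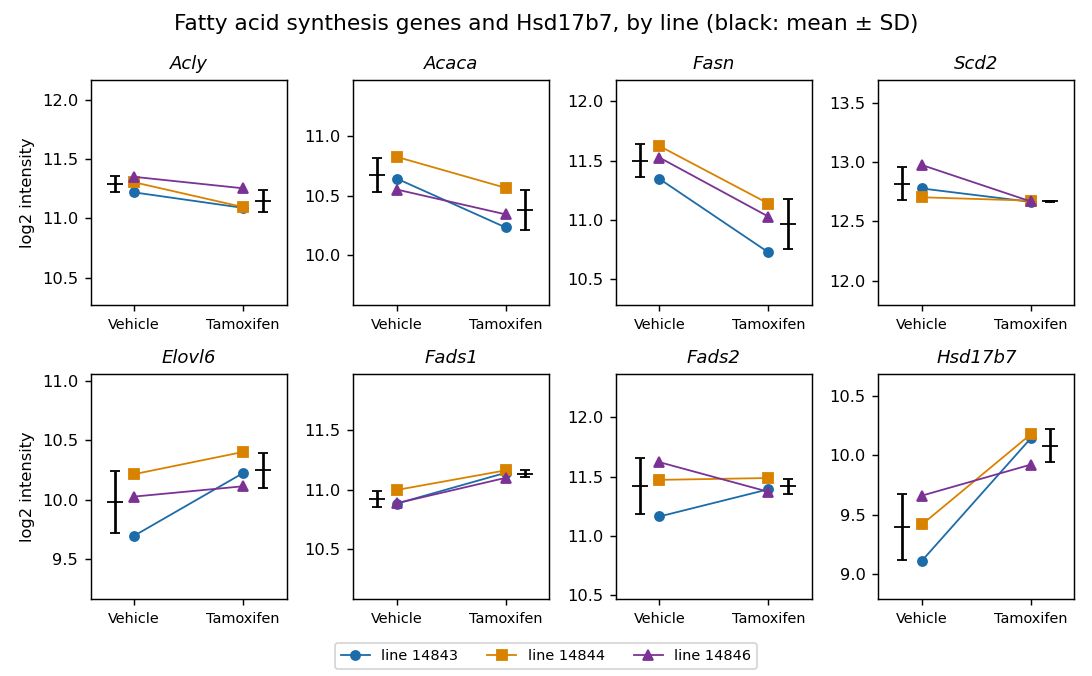
Log2 intensity in Vehicle and Tamoxifen for the 7 tested fatty acid synthesis genes and Hsd17b7, with a line joining the arrays of each leukemia and black bars for the mean ± SD (n = 3). Each panel spans the same width on the log2 scale; Fasn falls in parallel in the 3 lines, and Hsd17b7 comes from 9.11, 9.42 and 9.66 to values between 9.92 and 10.18.

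Among the sterol synthesis enzymes 0 of the 18 tested were called changed by limma, against 6.23% of all genes tested, and 3 had an unadjusted p under 0.05, against 23.8%. Hsd17b7 was the 1 of these that was higher in all 3 lines, and Tm7sf2 and Pmvk were lower in all 3. The median difference of the 18 was 0.08, with uncalled differences from -0.18 to 0.68. Leaving out a line gave a median of 0.016 without line 14843, 0.054 without line 14844 and 0.13 without line 14846. Centring the arrays on their median gave 0.048, beside -0.0023 over all genes tested. Centring on the genes tested gave 0.14, beside 0.085. In 4 genes all 3 lines were higher and in 3 all were lower, against 28.6% and 20.2% of all genes tested, and in 11 the lines had a mixture of signs. In 3 of the 18 genes the groups did not overlap, against 23.7% of all genes tested.

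The early steps run from acetyl-CoA through mevalonate to squalene, and 8 of their 9 genes were tested. Hmgcs1, which makes the HMG-CoA that enters the pathway, measured 10.33, 10.87 and 10.94 in Vehicle and 10.63, 10.81 and 10.58 in Tamoxifen. Line 14843 was higher by 0.30 and line 14846 lower by 0.36, and the fitted difference was -0.04 ± 0.13 (SE), with a 95% interval from -0.36 to 0.27. Its sign turned under 1 centring of the arrays (0.02).

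Mvd, the mevalonate diphosphate decarboxylase, had the widest difference of the early steps. It measured 9.02, 9.36 and 9.25 in Vehicle and 9.43, 9.45 and 9.31 in Tamoxifen, a difference of 0.19 ± 0.08 (SE) with an adjusted p of 0.244. Pmvk, the phosphomevalonate kinase before it, measured 8.24, 8.24 and 8.36 in Vehicle and 7.95, 8.06 and 8.31 in Tamoxifen. Its difference was -0.17 ± 0.06 (SE) with an adjusted p of 0.189, opposite in sign to that of Mvd, and the groups of both genes overlapped.

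The other early genes had smaller differences. Mevalonate kinase, Mvk, gave 0.09 ± 0.06 (SE), the isomerase Idi1 0.02 ± 0.07, and Fdps, which makes farnesyl diphosphate, 0.06 ± 0.05. Fdft1, squalene synthase, gave 0.14 ± 0.08, and Ggps1, which draws farnesyl diphosphate off towards protein prenylation, 0.13 ± 0.07. Ggps1 was the early gene whose groups did not overlap, with a line difference of 0.30 in line 14846 against 0.01 and 0.06 in the others. The adjusted p of these 5 genes lay between 0.351 and 0.905.

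From squalene to cholesterol all 10 genes were tested. Hsd17b7, a 3-ketosteroid reductase of sterol demethylation, measured 9.11, 9.42 and 9.66 in Vehicle and 10.15, 10.18 and 9.92 in Tamoxifen. All 3 Tamoxifen values lay above all Vehicle values, with line differences of 1.03, 0.76 and 0.26. The means were 9.40 ± 0.27 and 10.08 ± 0.14 (SD, n = 3 each). The difference was 0.68 ± 0.14 (SE), a 1.61-fold higher level, with a 95% interval from 0.32 to 1.05 and a limma adjusted p of 0.0595. It passed the test in 4 of 11 alternative settings, over which the adjusted p ran from 0.0132 to 0.248.

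Tm7sf2, a sterol delta-14 reductase, measured 8.14, 8.12 and 8.12 in Vehicle and 7.94, 7.98 and 7.91 in Tamoxifen. The groups did not overlap, and the difference of -0.18 ± 0.05 (SE) had an adjusted p of 0.103. Other enzymes of this stretch gave positive differences that did not pass the test. Cyp51, the lanosterol demethylase, had a difference of 0.16 ± 0.12, and Nsdhl, which acts with Msmo1 and Hsd17b7, of 0.13 ± 0.08. For Lss, the lanosterol synthase, it was 0.18 ± 0.10 and for the desaturase Sc5d 0.04 ± 0.07.

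Ebp is the isomerase that tamoxifen is known to bind, and with Dhcr7 it makes up the microsomal antiestrogen binding site. Ebp itself measured 10.15, 10.28 and 10.40 in Vehicle and 10.07, 10.26 and 10.27 in Tamoxifen. The difference was -0.08 ± 0.05 (SE), with a 95% interval from -0.21 to 0.05. Dhcr7, the last reductase to cholesterol, measured 10.34, 10.51 and 10.75 in Vehicle and 10.45, 10.55 and 10.60 in Tamoxifen, a difference of 0.00 ± 0.07 (SE) with a 95% interval from -0.17 to 0.17. The groups of both genes overlapped, and neither passed the test, with adjusted p of 0.418 and 0.982. The intervals do not show that the levels stayed the same.

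Sqle and Msmo1 had lines of opposed sign. Sqle, the squalene epoxidase and a slow step of the pathway, measured 10.13, 10.30 and 10.60 in Vehicle and 10.33, 10.41 and 10.21 in Tamoxifen, a difference of -0.03 ± 0.12 (SE) whose sign turned under 1 centring of the arrays (0.03). Msmo1, the sterol C4-methyl oxidase, measured 9.53, 9.81 and 10.54 in Vehicle and 10.05, 10.29 and 10.01 in Tamoxifen. Lines 14843 and 14844 were higher by 0.53 and 0.47, line 14846 was lower by 0.53, and the fitted difference was 0.16 ± 0.21 (SE). Without line 14846, Msmo1 had a difference of 0.50 with a limma adjusted p of 0.0238. Hsd17b7 then had one of 0.90 with an adjusted p of 0.0132. Thus 2 of the 18 sterol genes were called from the remaining lines, against 669 of all 13956 genes tested in that fit. Line 14846 had the opposed sign for Msmo1 and the smallest difference for Hsd17b7, so the larger differences follow from leaving it out. Without line 14843 or line 14844, 0 sterol genes were called, against 498 and 70 of all genes tested, and Msmo1 had differences of -0.027 and -0.0009.

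The order of the lines is given as a description, since 0 of the 18 sterol enzymes were called different between lines by limma's F test and 6 had an unadjusted p under 0.05, against 3.11% and 19.3% of all genes tested. In Vehicle, line 14843 had the lowest of the 3 values for 16 of the 18 genes (88.9%, against 34.3% of all genes tested), and line 14846 had the highest for 14 (77.8%, against 35.1%). The range over the 3 lines had a median of 0.42 in Vehicle and 0.21 in Tamoxifen, beside 0.19 and 0.14 over all genes tested. It was narrower in Tamoxifen for 15 of the 18 genes (83.3%), as for 62.0% of all genes tested. For Msmo1 the range was 1.01 in Vehicle and 0.27 in Tamoxifen.

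Within lines, the 18 genes had a median difference of 0.19 in line 14843, 0.11 in line 14844 and -0.06 in line 14846. Tamoxifen values were below Vehicle values for 3, 5 and 13 of the 18 genes in these lines, or 16.7%, 27.8% and 72.2%. Over all genes tested the shares were 45.5%, 43.4% and 44.6%. From squalene on, the medians were 0.25, 0.13 and -0.14, with 9 of the 10 genes lower in line 14846. A difference within a line contains its Vehicle value, so the order of the lines in Vehicle and the order of their differences are not independent. These genes share the same 6 arrays, and with 1 array for each line and treatment a difference in response between lines could not be tested. The level averaged over treatments was called different between lines for 0 of the 35 genes by limma's F test, against 3.11% of all genes tested. At an unadjusted p under 0.05 there were 11 of the 35, against 19.3% of all genes tested.

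**Figure D3:**
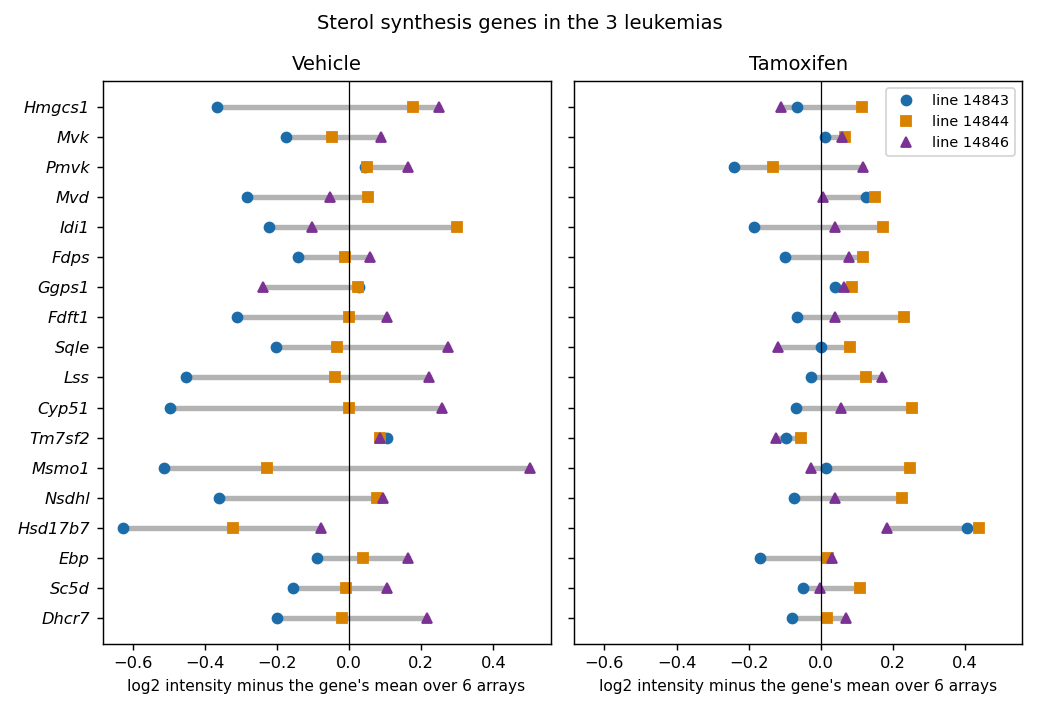
Log2 intensity of the 18 sterol synthesis genes in Vehicle (left) and Tamoxifen (right), minus the mean of each gene over 6 arrays, with a symbol for each leukemia line and a grey bar for the range over lines. In Vehicle line 14843 sits at the low end for 16 genes and line 14846 at the high end for 14, and the median range is 0.42 in Vehicle and 0.21 in Tamoxifen.

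Of the 5 genes of SREBP and its regulators, 0 were called changed by limma, against 6.23% of all genes tested. Insig2 was the 1 with an unadjusted p under 0.05, against 23.8% of all genes tested, a share near that background. Their median difference was -0.06, beside 0.03 over all genes tested. With the arrays centred on the genes tested it was -0.0047, beside 0.085 over all genes tested. Without line 14846 it was -0.038 and without line 14844 -0.098. In all 5 the groups overlapped. Srebf2, the SREBP gene chiefly of sterol synthesis, measured 11.35, 11.46 and 11.52 in Vehicle and 11.28, 11.41 and 11.41 in Tamoxifen, a difference of -0.07 ± 0.05 (SE). Srebf1, chiefly of fatty acid synthesis, measured 10.01, 9.91 and 10.10 in Vehicle and 10.03, 9.90 and 9.94 in Tamoxifen, a difference of -0.05 ± 0.06 (SE) that turned to 0.01 under 1 centring. Their adjusted p values were 0.417 and 0.629, and that of the escort Scap, with a difference of -0.06 ± 0.05, was 0.503.

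The Insig genes gave differences of opposite sign. Insig1, itself a target of SREBP, measured 10.74, 10.60 and 10.75 in Vehicle and 10.86, 11.05 and 10.37 in Tamoxifen. Line 14844 was higher by 0.45 and line 14846 lower by 0.38, and the fitted difference was 0.06 ± 0.15 (SE), with a 95% interval from -0.32 to 0.45. Insig2 measured 10.52, 10.48 and 10.35 in Vehicle and 10.22, 10.44 and 10.05 in Tamoxifen, lower in all 3 lines, with a difference of -0.21 ± 0.07 (SE) and an adjusted p of 0.154.

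Both tested genes of sterol trafficking and storage missed the threshold, which 6.23% of all genes tested passed. At an unadjusted p under 0.05 there was 1, against 23.8% of all genes tested. Npc1, which moves cholesterol out of lysosomes, measured 10.34, 10.49 and 10.89 in Vehicle and 10.09, 10.32 and 10.47 in Tamoxifen. Each line was lower, by 0.25, 0.17 and 0.41, while the groups overlapped because the lines lay further apart than the treatments. The difference was -0.28 ± 0.07 (SE) with an adjusted p of 0.0744. Stard4, a cytosolic sterol carrier, measured 10.47, 10.29 and 10.32 in Vehicle and 10.59, 10.31 and 10.26 in Tamoxifen, a difference of 0.03 ± 0.06 (SE).

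Of the LXR and efflux genes 3 were tested, and 0 were called changed or had an unadjusted p under 0.05, against 6.23% and 23.8% of all genes tested. So few genes cannot be told from that background. Abcg1, an LXR target that exports sterol, measured 9.95, 9.57 and 9.95 in Vehicle and 9.96, 9.79 and 9.48 in Tamoxifen. Mylip, the LXR-induced ligase that degrades the LDL receptor, measured 9.80, 9.35 and 9.90 in Vehicle and 9.71, 9.38 and 9.46 in Tamoxifen. In both, line 14846 had the largest difference (-0.47 and -0.44), and the fitted differences were -0.08 ± 0.13 and -0.16 ± 0.10 (SE), with adjusted p of 0.750 and 0.363. Abca1, the other main LXR-induced exporter, measured 6.43, 6.44 and 6.46 in Vehicle and 6.52, 6.52 and 6.58 in Tamoxifen, below the filter, and was not tested. Nr1h3, the gene of LXR alpha, gave -0.06 ± 0.07.

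A further 80 genes of the same pathways were listed, of which 67 had a probe set and 53 were tested. Of the 53, 5 were called changed, 4 lower and 1 higher, against 6.23% of all genes tested, and the median difference was -0.06. Osbpl2, a member of the oxysterol-binding protein family that moves lipids between membranes, fell 1.60-fold. It measured 9.76, 9.67 and 10.03 in Vehicle and 9.03, 9.12 and 9.25 in Tamoxifen, with no overlap. The difference was -0.68 ± 0.06 (SE) with an adjusted p of 0.00859. It was the 1 called gene among 15 tested of sterol trafficking, storage and oxysterols, and its call was lost without line 14844 (adjusted p = 0.0529).

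Among 6 tested genes of other sterol synthesis and uptake, 2 fell, against 6.23% of all genes tested called either way and 4.93% called lower. Pgrmc1, a heme-binding membrane protein known to bind Cyp51, measured 11.03, 11.33 and 11.32 in Vehicle and 10.69, 11.03 and 10.98 in Tamoxifen. Its difference was -0.33 ± 0.05 (SE) with an adjusted p of 0.0246. Scarb1, the receptor for high-density lipoprotein, measured 9.82, 10.22 and 10.01 in Vehicle and 9.61, 9.85 and 9.54 in Tamoxifen. Its difference was -0.35 ± 0.07 (SE) with an adjusted p of 0.0453. Every line was lower for both genes. Neither call held without the line as a block (adjusted p = 0.261 and 0.249). Leaving out any line ended the call of Pgrmc1, and leaving out line 14844 or 14846 ended that of Scarb1, which was also lost with no filter on dim genes (0.0525) and with the arrays centred on the genes tested (0.0542) and held in 6 of 11 settings.

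Among 18 tested genes of other fatty acid synthesis, activation and carbon supply, 1 fell and 1 rose, against 6.23% of all genes tested called either way. Hacd3, a dehydratase of fatty acid elongation, measured 10.50, 10.58 and 10.62 in Vehicle and 10.19, 10.31 and 10.34 in Tamoxifen, a difference of -0.29 ± 0.05 (SE) with an adjusted p of 0.0345. Acsl4, which activates long polyunsaturated fatty acids such as arachidonate, measured 10.73, 10.55 and 10.48 in Vehicle and 11.13, 10.89 and 10.94 in Tamoxifen, a difference of 0.40 ± 0.05 (SE) with an adjusted p of 0.0195. Neither pair of groups overlapped. Both calls were lost without the block (adjusted p = 0.0870 and 0.104), that of Hacd3 also without any 1 line and with the arrays centred on the genes tested (0.0676), and that of Acsl4 without line 14843 or 14844. Of the 10 tested genes of SREBP processing and sterol-dependent degradation 0 were called and 2 had an unadjusted p under 0.05, against 23.8% of all genes tested: the deubiquitinase Usp19 (-0.19 ± 0.05) and the ubiquitin-conjugating enzyme Ube2g2 (-0.14 ± 0.05). Of 4 tested LXR partners and other targets 0 were called, and 1, Rxrb, a partner receptor of LXR, had an unadjusted p under 0.05 (-0.18 ± 0.05), followed by the transporter Abca7 (0.07 ± 0.06).

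**Figure D4:**
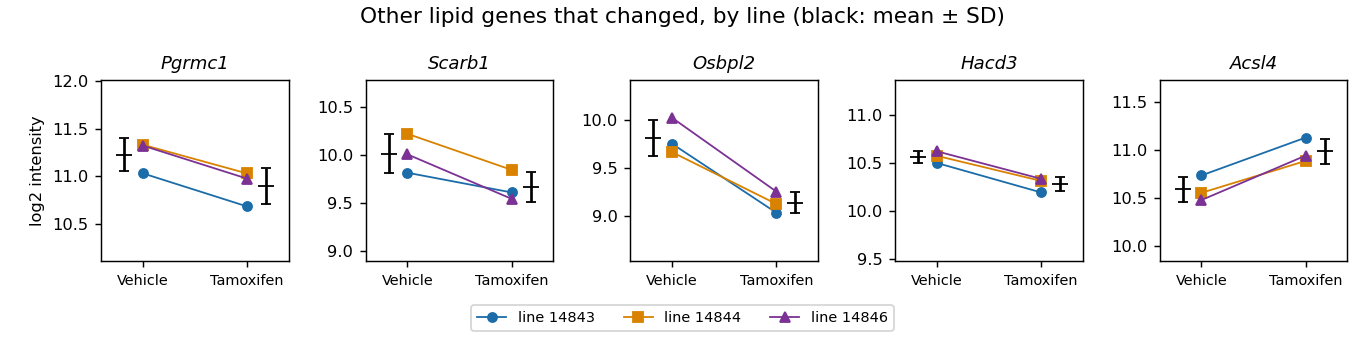
Log2 intensity in Vehicle and Tamoxifen for the 5 called genes of the further lipid lists, joined by leukemia line, with black bars for the mean ± SD (n = 3). Pgrmc1, Scarb1, Osbpl2 and Hacd3 are lower and Acsl4 is higher in Tamoxifen in each of the 3 lines.

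Marker levels of other cells were read beside these values. The summed intensity of the T-cell markers ran from 53483 to 58934 in Vehicle and from 51910 to 57766 in Tamoxifen. Of 10 monocyte and macrophage markers, with Adgre1, Csf1r and Mrc1 below the filter, the sum ran from 2012 to 2195 and from 2161 to 2415. The 7 neutrophil markers, Ly6g below the filter, summed to 1216 to 2155 and 1266 to 2882. The 5 stromal markers, Dcn below it, summed to 6198 to 6669 and 4959 to 8901. Most of the stromal sum came from Pdgfrb, with log2 means of 12.38 in Vehicle and 12.48 in Tamoxifen. Those of Col1a1 were 8.71 and 8.80, of Col1a2 8.76 and 8.72, and of Col3a1 7.77 and 7.91. B-cell sums (4 genes, Cd79a and Ms4a1 below the filter) ran from 503 to 979 and from 580 to 653. Erythroid sums (2 genes, Klf1 below it) ran from 211 to 226 and from 215 to 247. Adipocytes and hepatocytes, both rich in lipid synthesis, had Adipoq, Lep, Alb, Ttr and Cyp7a1 below the filter, with sums from 452 to 491 and from 351 to 363 in Vehicle and from 467 to 494 and from 351 to 383 in Tamoxifen. The ranges of the treatments overlapped for all 8 lists. Lyz2, Itgam and C1qb, monocyte and macrophage markers picked after their values were seen, were higher in Tamoxifen in all 3 lines. Their differences were 0.24, 0.29 and 0.27, with limma adjusted p of 0.132, 0.135 and 0.154. The other tested markers of that list, Cd68 (-0.09), C1qa (0.06), C1qc (0.08) and Marco (0.04), had lines of mixed sign. The 5 markers called different between lines were Lyz2, Itgam, S100a8, Ngp and Col1a2, with adjusted p for the line from 0.0072 to 0.036. Line 14844 had the highest mean of Lyz2, S100a8, Ngp and Col1a2, and line 14843 that of Itgam. The part of other cells in the results was not tested. In RNA from sorted cells, fewer cells expressing a gene and less RNA per cell cannot be told apart.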

How the data were processed

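The authors deposited an intensity for each probe set, on a linear scale. The submitters' processing notes name RMA and Affymetrix Expression Console 1.1. RMA equalises the distribution of probe intensities across arrays, so a difference in total signal is removed. The median intensity was 202 to 208 on each array, and correlations between arrays were 0.991 to 0.996. Precision is limited by the number of arrays. Genes were taken from probe sets with 1 symbol (21789 of 35556), keeping the probe set with the highest mean for each gene.

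The log2 intensities of 13956 genes were fitted with limma 3.58.1 in R 4.3.3 on line and treatment, with the moderated test (2 residual and 3.47 prior degrees of freedom) and Benjamini-Hochberg adjustment over all genes tested. The intervals use the same degrees of freedom. The code was tested on simulated data. Arrays of the same line deviated together from their group means (correlations 0.618 to 0.658), and arrays of different lines had correlations of -0.481 to -0.125. Deviations within a group cancel out over its lines, so the negative values follow from the positive ones. The labels name the line, so the line was the block. The lines are separate leukemias. The sources used here do not say how many hosts gave each array.

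The genes and lists were chosen with earlier results of these data known. Values on all arrays were given for genes called changed, for a list of named genes and for the 2 widest differences in each role, and among the further lists for genes called changed, with the 2 of lowest p where none was. Alternatives left out the block or each line, changed the filter, the centring of arrays, the choice of probe set or the variance model; 2 centrings were added after seeing the data. Promoter sequences came from RefSeq (GRCm38.p6). The build used for the array is not given in the sources used here.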

Additional observations from a re-analysis of the deposited data

Results flagged for a closer look

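In 3 of the 35 tested genes, at least 1 line was higher and at least 1 was lower in Tamoxifen by 0.3 or more on the log2 scale, a size chosen after the values were seen. This held for 126 of 13956 genes tested (0.903%). The span from the lowest to the highest line difference was 1.06 for Msmo1 (0.53, 0.47 and -0.53 in lines 14843, 14844 and 14846), 0.83 for Insig1 (0.12, 0.45 and -0.38) and 0.66 for Hmgcs1 (0.30, -0.06 and -0.36). Line 14846 was the low one in each. With 1 array for each line and treatment, the difference between lines was not tested.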

How the results depend on the processing

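Without the line as a replicate block, 295 genes were called in place of 870, the count of fatty acid synthesis genes went from 1 to 0, and the lower share of calls from 79.1% to 93.2%. Leaving out a line gave 70 to 669 calls, the fewest without line 14844, with 0 to 1 fatty acid genes and 0 to 2 sterol genes. Sterol synthesis went from 0 to 1 called gene, Hsd17b7, with a filter at the 50th percentile, with arrays centred on their median over all named genes and with arrays centred on the genes tested. Centring on the median gave 1 trafficking gene (Npc1) and 2 fatty acid genes (with Acaca), centring on all probe sets 2 as well. Centring on the genes tested moved the lower share of calls to 57.7%, the median of all genes tested from 0.03 to 0.08, and the calls between lines from 434 to 674. These centrings turned the sign of uncalled genes: Hmgcs1 to 0.018, Sqle to 0.034, Srebf1 to 0.0074 and Fads2 to 0.057 on the genes tested, Idi1 to -0.011 and Dhcr7 to -0.025 on the array median, and Dhcr7 to -0.0102 on all probe sets. The sign also turned without 1 line, with ranges of -0.21 to 0.12 for Hmgcs1, -0.045 to 0.089 for Idi1, -0.14 to 0.16 for Sqle, -0.027 to 0.50 for Msmo1, -0.00050 to 0.11 for Sc5d, -0.054 to 0.079 for Dhcr7, -0.13 to 0.29 for Insig1, -0.086 to 0.0038 for Srebf1, -0.018 to 0.075 for Stard4, -0.23 to 0.12 for Abcg1 and -0.12 to 0.12 for Fads2. Fewer arrays enter these fits, with 1 residual degree of freedom; the cause of the other shifts was not tested. Dim probe sets, such as those of Abca1 and Scd1, carry little signal over background, and 3 arrays a group limit the size of change that can be called.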

Other observations

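Among the further lipid genes tested, 9 had a range over the lines in Vehicle above 0.5. Line 14843 was lowest and line 14846 highest in 6 of them, and line 14843 was highest in Lipa, Rnf145 and Gramd1a. Over all 53 further genes tested, line 14843 was lowest in Vehicle for 52.8% and line 14846 highest for 49.1%. These shares were 34.3% and 35.1% over all genes tested. Of the 6, 3 are given here, picked after their values were seen. Gpam, the first acyltransferase of glycerolipid synthesis, measured 9.09, 9.56 and 10.17 in Vehicle and 9.57, 9.86 and 9.89 in Tamoxifen. Gramd1b, a carrier of cholesterol from the plasma membrane, measured 9.75, 10.07 and 10.62 in Vehicle and 10.25, 10.39 and 10.61 in Tamoxifen. Osbpl5, of the oxysterol-binding protein family, measured 8.71, 8.92 and 9.28 in Vehicle and 9.07, 9.08 and 9.20 in Tamoxifen. None of these 3 was called changed between treatments, with adjusted p of 0.534, 0.194 and 0.393.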
